A study of Mus musculus with 9 samples.

Results

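The Dlk1-Dio3 locus of mouse chromosome 12 was followed in RNA sequencing libraries of the hippocampus through 6 genes: Dlk1, Meg3, Rtl1, Rian, Mirg and Dio3. They were matched by gene symbol, and all 6 were found among the 54532 genes listed in each deposited table. The members were chosen by their place in this imprinted locus after the Meg3 level of the betaine libraries, in these same data, had drawn attention to it. For that reason the differences of the betaine libraries are given below as descriptions with no p. The genes that the limma fit called in those comparisons are only counted beside the share over all genes. The comparison of the 2 diets is the tested one.

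The 9 libraries fell into 3 groups of 3. The Con group received a standard diet. The HMD group ate a diet rich in methionine over 8 weeks. The Bet+HMD group ate that diet over the same 8 weeks and afterwards drank water with betaine at 2.5% w/v, over 2 weeks. The labels describe wild-type or C57BL/6 male mice, bought at 6 to 8 weeks of age and kept as pairs in a cage, so that samples of a group may share a cage. The strain labels of Bet+HMD replicates 2 and 3 read C57BL/7 and C57BL/8. The study's methods, which do not mention betaine, call the mice female. Xist, however, was at or below 0.0449 FPKM and the Y-linked Ddx3y at or above 12.7 FPKM in every library.

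Levels are FPKM, a read count divided by gene length and by library size, deposited in an earlier table with the Con and HMD libraries and a later one that holds these 6 again with the 3 Bet+HMD libraries. Reads assigned to genes numbered 16031464 to 18291952 per library in the later table and 16449388 to 18566712 in the earlier one. The Bet+HMD libraries stood apart: 25315 to 25663 genes had a read in them, against 20816 to 23272 in the other 6. Long intergenic RNA other than Meg3 took 0.782% to 0.805% of their reads, against 0.446% to 0.520% in the others, and antisense genes took 0.251% to 0.256% against 0.133% to 0.149%. Genes of ribosomal proteins took 0.426% to 0.500% against 0.839% to 1.35%. The earlier table holds none of these libraries, and the 2 weeks of betaine came after the 8 weeks of diet. Betaine, deposit and any difference in age or time after the diet therefore cannot be told apart.

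All 8 hippocampal markers, among them Prox1 and Neurod6, were at or above 1 FPKM on average in each group. Their sum was 235 to 263 FPKM in Con, 199 to 243 in HMD and 211 to 219 in Bet+HMD. Markers of the thalamus summed to 11.3 to 15.4 FPKM in Con, 22.4 to 77.9 in HMD and 19.1 to 20.3 in Bet+HMD, with none of the 7 at 0. Markers of the hypothalamus summed to 3.48 to 4.98, 6.05 to 6.97 and 2.54 to 3.80 FPKM in the same order. Pituitary markers summed to 3.51 to 19.2 FPKM in Con, 3.54 to 11.5 in HMD and 0.392 to 0.441 in Bet+HMD, where growth hormone was listed at 0 in each library. The part of these regions in the levels of the locus was not tested.

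Genes of an imprinted locus are transcribed mainly from a single parental copy. At Dlk1-Dio3 the maternal copy gives the long noncoding RNAs Meg3, Rian and Mirg with the snoRNAs and miRNAs among them, and the paternal copy gives the protein-coding Dlk1, Rtl1 and Dio3. Methylation of DNA between Dlk1 and Meg3 marks the copies, and in the brain the noncoding RNAs are known to be expressed in neurons. Betaine donates a methyl group when homocysteine is turned back into methionine. The libraries read RNA levels, not DNA methylation and not the parental copy. In bulk tissue, fewer cells of a type and less RNA per cell cannot be told apart.

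On GRCm38 the 6 genes lie in the order Dlk1 (chr12:109452823-109463336), Meg3 (chr12:109541001-109571726), Rtl1 (chr12:109589193-109600330), Rian (chr12:109603940-109661716), Mirg (chr12:109729764-109749460) and Dio3 (chr12:110279068-110281097). Rtl1 is on the minus strand and the other members are on the plus strand. The annotation gives Meg3 11 transcripts in GENCODE M21, with 58.9% of its span in exons. Rian has 20 transcripts, with 31.6% of its span in exons, and Mirg has 12, with 37.0%.

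The start of Meg3 is shown because its transcript differed most in level. The start of Dlk1 is shown because it is the nearest protein-coding member of the other parental copy that had a promoter window. Both are RefSeq windows on GRCm38.p6, plus strand, and 5 of the 6 members had one. Rtl1, which lies nearer to Meg3 than Dlk1 does, had none. Capitals mark every match, on either strand, to a cAMP response element (TGACGTCA), a TATA box (TATAAA) or the core that the imprint-keeping factor ZFP57 reads (TGCCGC). The Meg3 window is chr12:109540746-109541045, and the Dlk1 window is cut at its start site, chr12:109452573-109452822.
Meg3: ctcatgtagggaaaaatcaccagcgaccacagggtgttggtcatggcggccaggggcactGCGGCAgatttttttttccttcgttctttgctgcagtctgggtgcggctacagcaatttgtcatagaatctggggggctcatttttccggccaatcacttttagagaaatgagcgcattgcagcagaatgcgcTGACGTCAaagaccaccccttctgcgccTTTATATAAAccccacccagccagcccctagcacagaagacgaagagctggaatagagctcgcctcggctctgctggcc
Dlk1: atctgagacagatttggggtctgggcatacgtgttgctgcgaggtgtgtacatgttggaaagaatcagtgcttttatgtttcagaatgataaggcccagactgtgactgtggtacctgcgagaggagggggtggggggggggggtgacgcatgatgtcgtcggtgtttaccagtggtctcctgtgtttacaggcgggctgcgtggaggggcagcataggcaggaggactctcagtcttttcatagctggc
The Meg3 window held the cAMP response element 57 bases before the start site, a pair of overlapping TATA matches of opposite strand that begin 29 and 25 bases before it, and the ZFP57 core 190 bases before it. None of the 3 motifs matched in the windows of Dlk1, Rian and Mirg or in a downstream window of Meg3, and the Dio3 window held a TATA box 31 bases before its start. Of 32851 promoter windows of the same length, 1.79% held the cAMP response element, 13.6% the TATA box and 11.6% the ZFP57 core. CpG dinucleotides were counted over the full 300 bases of each window, beyond the part of the Dlk1 window shown. They numbered 13 in the Meg3 window shown, 9 in that of Dlk1, 10 in that of Mirg and 25 in that of Dio3. The Rian window held 0 and the downstream Meg3 window 1, and the median over all windows was 7. A match describes letters only.

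Meg3, a nuclear long noncoding RNA of neurons, was the member with the widest range. Its level in the later table was 27.2, 12.2 and 23.5 FPKM in the Con libraries and 16.6, 23.4 and 21.8 FPKM in the HMD libraries. In the Bet+HMD libraries it was 328, 324 and 341 FPKM. Every Bet+HMD library lay above every other library, whereas Con and HMD overlapped, and Con replicate 2 was the lowest of all. The Bet+HMD mean was 331 FPKM ± 8.56 (SD, n = 3), 16.1 times the HMD mean of 20.6 ± 3.57 and 15.8 times the Con mean of 21.0 ± 7.82. On the scale of log2(FPKM + 1) the difference was 3.96 (SE 0.12) from HMD and 3.99 (SE 0.27) from Con. A larger positive difference from HMD was found for 5 of 13672 genes, and a larger one from Con for 1 of 13643. In reads, Meg3 had 3579 to 8909 in the Con and HMD libraries and 103131 to 107322 in the Bet+HMD libraries.

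Rian, the host of snoRNAs and also called Meg8, was in FPKM the highest member on average in Con and in HMD. It was at 24.5, 25.2 and 22.7 FPKM in Con, at 22.7, 27.4 and 23.3 FPKM in HMD, and at 38.2, 38.6 and 41.1 FPKM in Bet+HMD. The Bet+HMD libraries were again above all others, but by 1.61 times the HMD mean and 1.63 times the Con mean, a log2 difference of 0.67 (SE 0.09) and 0.68 (SE 0.08). The spread within each group was small, with an SD of 1.29 FPKM in Con, 2.54 in HMD and 1.57 in Bet+HMD.

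Mirg, the host of the miRNA cluster at the far end of the locus, was low outside the Bet+HMD group. Its level was 0.682, 0.288 and 0.706 FPKM in Con, 0.497, 0.170 and 0.698 FPKM in HMD, and 3.93, 3.43 and 3.10 FPKM in Bet+HMD. Con and HMD overlapped, with the lowest value of each group in its replicate 2, and the Bet+HMD libraries stood above both. The ratio of means was 7.66 to HMD and 6.24 to Con. The log2 difference of 1.64 (SE 0.16) from HMD understates that ratio because of the pseudocount.

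Rtl1, a protein-coding gene derived from a retrotransposon and known for its role in the placenta, lay below 0.25 FPKM in Con and HMD. It was at 0.191, 0.194 and 0.202 FPKM in Con, at 0.136, 0.133 and 0.233 FPKM in HMD, and at 1.19, 1.00 and 0.949 FPKM in Bet+HMD. These are 13 to 25 reads a library in the first groups and 105 to 131 in Bet+HMD, 6.25 times the HMD mean in FPKM. The Bet+HMD libraries did not overlap the others. Rtl1 lies on the strand opposite to the other members, RNA of the maternal copy crosses it, and no source used here says whether reads were counted by strand, so sense and antisense reads cannot be told apart.

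Dlk1, a membrane protein related to Notch ligands, did not follow the noncoding members. Its level was 4.28, 2.33 and 2.56 FPKM in Con, 3.49, 3.25 and 4.33 FPKM in HMD, and 2.13, 1.99 and 2.47 FPKM in Bet+HMD. Bet+HMD lay below HMD in every library but overlapped Con, whose replicates 2 and 3 were in its range or just above it. The mean of Bet+HMD was 0.594 times that of HMD, a log2 difference of -0.55 (SE 0.12), and 0.717 times that of Con, a difference of -0.32 (SE 0.18). Dlk1 had its highest mean in HMD, where its libraries overlapped those of Con. The thalamic and hypothalamic marker sums given above were highest in HMD, whereas the pituitary sum reached its highest value in Con. The part of these regions in the Dlk1 level was not tested.

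Dio3, the deiodinase that inactivates thyroid hormone, was low and varied widely between the Con libraries. It was at 4.11, 1.70 and 2.13 FPKM in Con, at 2.38, 1.09 and 1.31 FPKM in HMD, and at 1.05, 0.919 and 1.13 FPKM in Bet+HMD. The Bet+HMD libraries lay below every Con library and overlapped HMD, whose replicate 2 was between them. The mean of Bet+HMD was 0.390 times that of Con, a log2 difference of -0.79 (SE 0.23), and 0.648 times that of HMD, a difference of -0.32 (SE 0.19). Reads were few, 33 to 40 a library in Bet+HMD and 34 to 151 in the other groups.

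**Figure D1:**
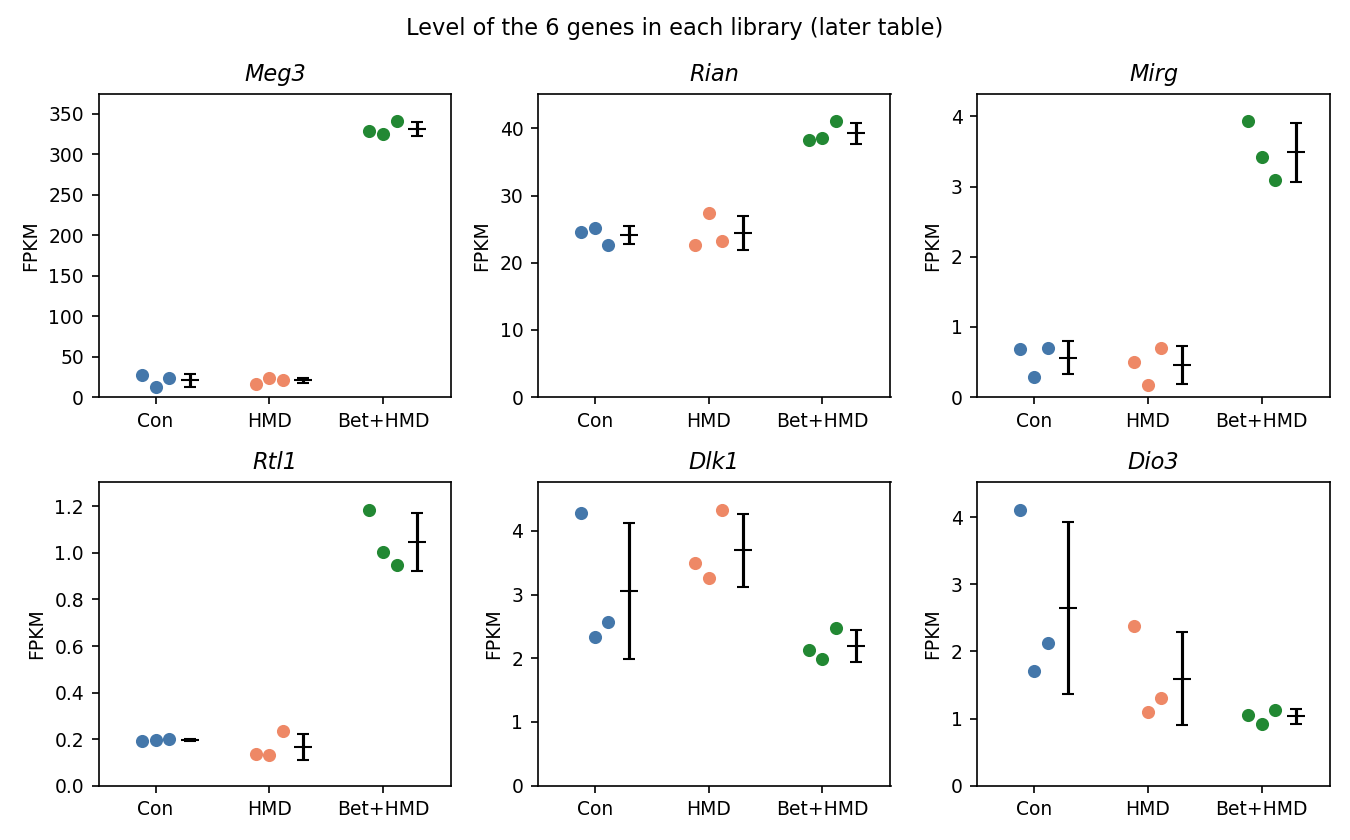
FPKM of each of the 6 genes (one panel each, linear axis from 0) in the 3 libraries of each group (points) with the mean and SD (line and bar). Meg3, Rian, Mirg and Rtl1 were higher in the 3 Bet+HMD libraries than in any other, whereas Dlk1 and Dio3 were not.

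The tested comparison asked whether the high-methionine diet moved the locus. Genes with a mean of at least 1 FPKM were fitted with limma on log2(FPKM + 1), and a gene was called at a Benjamini-Hochberg adjusted p under 0.05 over all 12989 genes tested. Of the 6 members, 4 passed the filter and 0 were called. Over all genes 0% were called, with 592 at an unadjusted p under 0.05 and 0 of 4 members among them. With limma voom on recovered reads 0 were called as well, with 567 under that unadjusted p. Of the 6 members, 0 had groups that did not overlap, against 9.37% of all genes.

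In the earlier table, where this comparison was made, Meg3 was at 26.9, 12.0 and 22.9 FPKM in Con and at 16.4, 22.9 and 21.5 FPKM in HMD. Its log2 difference, HMD minus Con, was 0.03 (SE 0.28, limma adjusted p = 0.993). Rian gave 0.01 (SE 0.11, limma adjusted p = 0.993). The SE of Meg3 is wider because Con replicate 2 lay far under the other Con libraries. Without that library the difference was -0.29, with a limma adjusted p of 0.616.

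Dlk1 differed by 0.24 (SE 0.19, limma adjusted p = 0.980) and Dio3 by -0.46 (SE 0.27, limma adjusted p = 0.980). Mean Dio3 was 2.61 FPKM ± 1.23 (SD, n = 3) in Con and 1.58 ± 0.709 in HMD, and the groups overlapped. Mirg, with means of 0.559 and 0.445 FPKM, and Rtl1, with 0.190 and 0.164, were below the level tested. A p that misses the threshold does not show equal levels, and changes of the size of these SEs were not detectable with 3 libraries a group.

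Reads in Meg3, Rian and Mirg together made up 0.0934%, 0.0647% and 0.0866% of the assigned reads in Con and 0.0711%, 0.0880% and 0.0823% in HMD. The means of 0.0816% ± 0.0150 and 0.0804% ± 0.00859 (SD, n = 3) differed by less than the spread within either group. A two-sided exact permutation test of 3 against 3 libraries gave p = 1, and the smallest p this design allows is 0.1.

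The same share was 0.697%, 0.692% and 0.723% in the Bet+HMD libraries, and most of it was Meg3. Meg3 alone held 88.6% to 88.8% of the reads of the 6 members there, against 31.5% to 50.3% in the other libraries. The ratio of Meg3 to Rian, which does not depend on library size, was 1.11, 0.485 and 1.03 in Con, 0.729, 0.855 and 0.937 in HMD, and 8.59, 8.42 and 8.29 in Bet+HMD. Within Con and HMD the ratio stayed near or under 1, and the 3 Bet+HMD libraries were close to each other. The ratio of Mirg to Rian was 0.0114 to 0.0311 in Con, 0.00621 to 0.0300 in HMD and 0.0753 to 0.103 in Bet+HMD. The 3 noncoding members thus differed between groups by unequal factors.

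**Figure D2:**
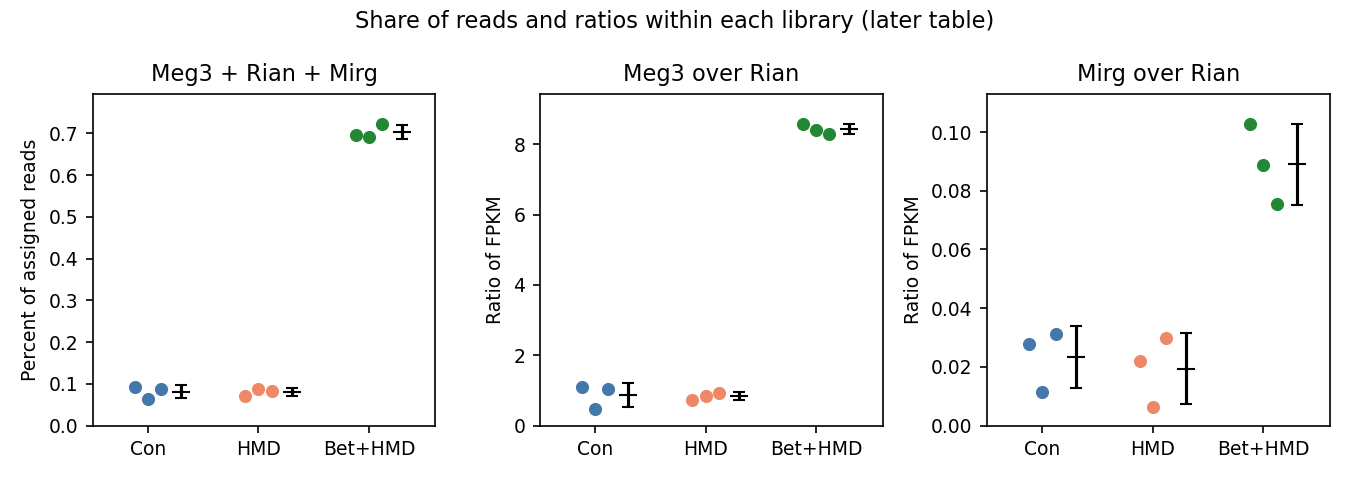
Percent of assigned reads in Meg3, Rian and Mirg together (left), the ratio of Meg3 to Rian FPKM (middle) and of Mirg to Rian FPKM (right) in each library (points) with the mean and SD (line and bar). Meg3 over Rian was at most 1.11 in the Con and HMD libraries and at least 8.29 in the Bet+HMD libraries.

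Of the 6 members, 5 reached a mean of 1 FPKM in the fits with Bet+HMD (later table), and Mirg did so only through the Bet+HMD libraries. Against HMD, limma called Meg3, Rian and Mirg higher and Dlk1 lower. These are 3 and 1 of 5, beside 22.8% of all genes called higher and 25.5% called lower. Against Con, Meg3, Rian and Mirg were called higher and Dio3 lower, beside 19.4% of all genes called higher and 20.4% lower. Both comparisons share the Bet+HMD libraries, whose Meg3 level led to the choice of the members, so nothing is read from either count. Every alternative tested left the direction of these differences as it was. Dio3 against Con was no longer called without the filter, on TPM, or with any Bet+HMD library left out.

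Groups that did not overlap were found for 3 members higher and 1 lower against HMD among the 5, and Rtl1 below the filter was a further one. Over all genes, 28.3% did not overlap and were higher, and 31.8% did not overlap and were lower. Against Con the members gave the same numbers, with Dio3 in place of Dlk1, beside 26.1% and 29.0% of all genes. Rescaling FPKM to TPM moved the median log2 difference of all genes from -0.03 to 0.16 against HMD and from -0.04 to 0.17 against Con, and raised the share of calls that were higher from 47.2% to 69.5% and from 48.8% to 73.5%. On TPM the log2 difference from HMD was 4.20 for Meg3, 0.88 for Rian, 2.59 for Mirg, -0.50 for Dlk1 and -0.30 for Dio3. The part of library composition in these differences was not tested.

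The annotation lists 115 other genes from 0.1 Mb before Dlk1 to 0.1 Mb after Dio3, and 53 of them had at least 1 read in the later table. They include 67 miRNA genes, 23 snoRNA genes and 10 long intergenic RNAs. The position of each of the 121 genes of the window was the same in GENCODE M21. Small RNA genes inside exons of Meg3, Rian and Rtl1, 2 miRNAs, 8 snoRNAs and 7 miRNAs, were listed at 0 in every library. The 9 miRNA genes inside exons of Mirg had 22 reads, all on Mir3072. How reads that overlap 2 genes were counted is not given in the sources used here, so these zeros do not show absent RNA. Most of the small RNA reads, 474 and 159, fell on 4 of 5 snoRNA genes and on 4 miRNA genes in introns of Rian. Libraries of long RNA read precursors or host introns at such places, not mature small RNAs.

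The small RNA genes with the most reads were Gm23600 and Gm24564, snoRNAs of Rian introns, and Mir1188 and Mir341, miRNAs of a Rian intron. Their sequences are shown because they are the small RNAs that the values below name. For the snoRNAs, at chr12:109643748-109643818 and chr12:109631074-109631148 on the plus strand, capitals mark the letters ATGATG, which are the core of a C box, and CTGA, the D box, on the transcript's strand.
Gm23600: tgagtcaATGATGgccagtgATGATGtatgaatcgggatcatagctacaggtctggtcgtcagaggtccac
Gm24564: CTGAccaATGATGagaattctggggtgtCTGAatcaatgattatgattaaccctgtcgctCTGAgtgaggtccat
The 2 boxes are what defines C/D snoRNAs, which guide methylation of other RNAs. Of 1507 snoRNA transcripts of GENCODE M21, 20.6% held ATGATG with CTGA after it, and of the 23 snoRNA genes of the locus 14 did. Gm23600 held ATGATG at 2 places and no CTGA. For the miRNAs, from RefSeq on GRCm38.p6, capitals mark the seed, bases 2 to 8, with which a miRNA pairs to its targets. The arms of Mir341 lie at chr12:109611521-109611541 and chr12:109611556-109611576, and those of Mir1188 at chr12:109611841-109611861 and chr12:109611877-109611901, all on the plus strand.
miR-341-5p: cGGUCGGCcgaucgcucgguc
miR-341-3p: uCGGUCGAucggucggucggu
miR-1188-5p: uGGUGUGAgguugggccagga
miR-1188-3p: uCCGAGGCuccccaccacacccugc
Of 67 miRNA genes of the window, 61 matched a RefSeq entry by symbol, with 114 mature records. These carried 104 different seeds, and 9 seeds were shared by more than 1 mature miRNA. None of the 4 arms shown shares its seed with another miRNA of the locus.

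Gm23600 had 5, 10 and 9 reads in Con, 0, 8 and 1 in HMD and 59, 78 and 77 in Bet+HMD. Gm24564 had 4, 5 and 1 reads in Con, 3, 11 and 11 in HMD and 31, 25 and 42 in Bet+HMD. Both were highest in the 3 Bet+HMD libraries, and a count of 0 still allows up to 3 reads. Mir341 had 3, 0 and 0 reads in Con, 1, 3 and 0 in HMD and 27, 16 and 22 in Bet+HMD. Mir1188 had 8, 1 and 0 reads in Con, 1, 2 and 0 in HMD and 24, 24 and 17 in Bet+HMD, so that both miRNA genes were near the floor outside that group.

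Over the whole locus, miRNA genes had 21, 2 and 8 reads in Con, 11, 16 and 11 in HMD and 119, 93 and 114 in Bet+HMD. In RPM, reads scaled to the total assigned in the library, this was 0.118 to 1.15 in Con, 0.629 to 0.998 in HMD and 5.52 to 7.17 in Bet+HMD. snoRNA genes of the locus had 26, 20 and 13 reads in Con, 7, 19 and 15 in HMD and 107, 125 and 149 in Bet+HMD. Small RNA genes elsewhere in the genome also differed: snoRNA genes had 21.0 to 35.4 RPM in Con and HMD and 50.9 to 58.0 in Bet+HMD. miRNA genes elsewhere had 111 to 533 RPM in Con, 195 to 230 in HMD and 330 to 417 in Bet+HMD. There Bet+HMD lay above every HMD library and overlapped Con through Con replicate 1.

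**Figure D3:**
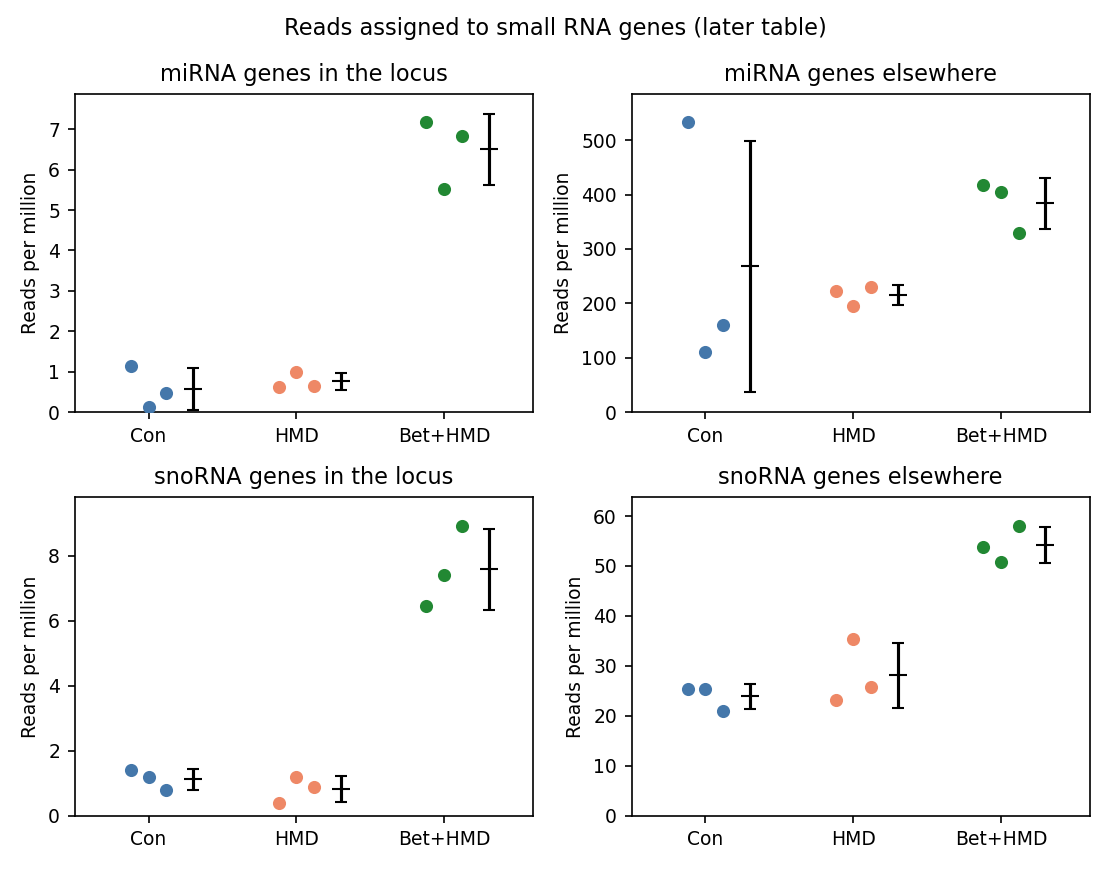
RPM (y axes, linear from 0) in miRNA genes (top) and snoRNA genes (bottom) of the locus (left) and of the rest of the genome (right), in each library (points) with the mean and SD (line and bar). In the locus both classes were higher in the 3 Bet+HMD libraries than in the other 6, and elsewhere this held for snoRNA genes alone.

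The only other long RNA gene of the window with a mean of at least 1 FPKM was Gm26945, a long intergenic RNA inside a Rian intron. It had 21, 11 and 14 reads in Con, 6, 12 and 2 in HMD and 105, 123 and 120 in Bet+HMD, with no overlap of Bet+HMD and the rest. Of the 15 other genes of the window tested against HMD, 10, Gm26945 among them, had an HMD mean under 1 FPKM and reached the tested level only through the Bet+HMD libraries, so no count of calls is given for them. Between HMD and Con 6 such genes were tested and 0 were called by limma, with 1 higher and 1 lower at an unadjusted p under 0.05.

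Within 1 Mb on either side of the window, 26 genes had a mean of at least 1 FPKM. Against HMD 4 of these were called higher, 9 lower and 13 not, with a median log2 difference of -0.16. Over all genes 22.8% were called higher and 25.5% lower, with a median of -0.03. Ankrd9, with means of 2.77 FPKM in HMD and 0.964 in Bet+HMD, reached the tested level only through the HMD libraries. The nearest genes before Dlk1 were Begain, at the synapse, with means of 28.8 FPKM in HMD and 21.4 in Bet+HMD, and Wdr25, with 1.32 and 1.14. The nearest after Dio3 were Ppp2r5c, a subunit of protein phosphatase PP2A, with 33.6 and 22.3 FPKM, and Gm35558, with 1.32 and 3.36. Gm35558 had the largest absolute log2 difference of the 26, 1.12, and was not called. Its reads were few, 11, 0 and 3 in HMD and 11, 16 and 9 in Bet+HMD.

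**Figure D4:**
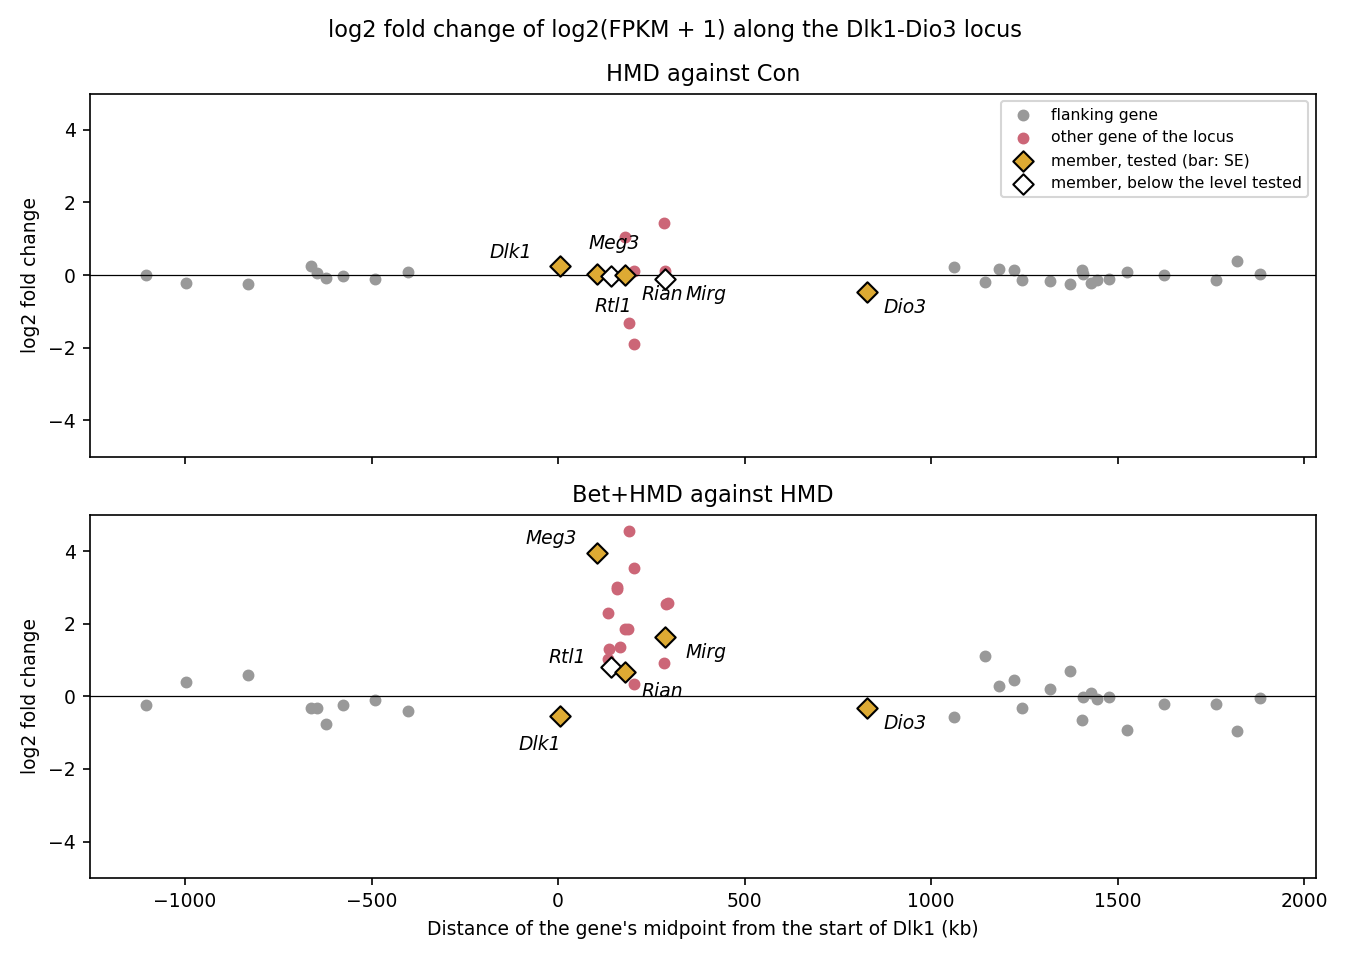
log2 difference of log2(FPKM + 1) against distance from the start of Dlk1 in kb, for HMD against Con (top) and Bet+HMD against HMD (bottom). Diamonds are the 6 members (filled where tested, with SE bars, some smaller than the diamond), red points the other tested genes of the locus (in the lower panel, 10 of 15 were tested only through the Bet+HMD libraries) and grey points flanking genes; in the lower panel Meg3 is at 3.96 and all grey points lie between -0.94 and 1.12.

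Other long noncoding RNAs were set beside Meg3. Of 12 tested against HMD, Neat1 reached the tested level only through the Bet+HMD libraries, and of the other 11, 6 were called higher, 0 lower and 5 not. This and the list counts that follow stand beside 22.8% of all genes called higher and 25.5% called lower. Malat1 went from a mean of 28.6 FPKM in HMD to 140 in Bet+HMD, with 25.6 in Con. Miat went from 5.28 to 54.3 FPKM, Snhg11 from 43.0 to 349 and Mir124a-1hg, the host of a neuronal miRNA, from 6.57 to 49.1. Gas5, a snoRNA host and 1 of the 5 not called, was at 11.5 and 13.4 FPKM, and is named here after its values were seen. High Meg3 in the Bet+HMD libraries thus came with high levels of several long noncoding RNAs from outside the locus, and the part of library composition in both was not tested.

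The pattern most like that of Meg3 over the 9 libraries, by Pearson's r of log2(FPKM + 1) among 13446 genes, was that of Mir124a-1hg (r = 0.999), followed by Celsr3, Dennd6b, Pnisr and Col6a1 (r = 0.996 to 0.997). Among members r was 0.978 for Rtl1 (rank 263), 0.974 for Mirg (rank 341), 0.959 for Rian (rank 591), -0.61 for Dlk1 and -0.56 for Dio3. Many genes outside the locus thus followed Meg3 more closely than any member did. These values rest mainly on the step between the Bet+HMD libraries and the rest. After each group's mean was subtracted, the most like were Tnrc6c (r = 0.988), Malat1 (r = 0.984), Pcdhgc5, Gon4l and Zkscan3. Rian (r = 0.03) and Rtl1 (r = 0.06) then no longer followed Meg3, while Mirg had r = 0.42, Dio3 0.35 and Dlk1 0.62. These correlations are descriptions, and Con replicate 2, far below the other Con libraries in Meg3, takes part in them.

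Genes that keep or read imprints included 15 tested against HMD, of which Ezh2 and Zfp57 reached the tested level only through the Bet+HMD libraries. Of the other 13, 4 were called higher, 2 lower and 7 not. Zfp445, a factor that keeps methylation at imprinted loci, went from 16.4 to 33.6 FPKM. Its cofactor Trim28 went the other way, from 32.3 to 19.8 FPKM. Between HMD and Con 13 were tested, with 0 called by limma and 0 at an unadjusted p under 0.05.

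Of 17 other imprinted genes tested against HMD, 1 was called higher, 8 lower and 8 not. Peg3, a paternally expressed zinc finger gene, went from 23.0 to 44.9 FPKM. Ndn, of the Prader-Willi region, went from 58.6 to 17.5 FPKM and Snrpn, of the same region, from 175 to 107. Relatives of Rtl1 in the RTL family gave 0 higher, 4 lower and 5 not called of 9, with Rtl8b at 51.8 and 16.4 FPKM and Rtl8a at 19.9 and 11.3. In HMD against Con 0 of 17 and 0 of 10 were called by limma, with 0 and 2 at an unadjusted p under 0.05.

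Genes around Dio3 and Dlk1 were read from lists of thyroid hormone handling and of the Notch pathway. Of 12 thyroid genes 3 were called higher, 2 lower and 7 not against HMD. Crym, which binds the hormone in the cell, went from 45.0 to 24.5 FPKM and the receptor Thra from 141 to 110. Between HMD and Con 0 of 12 were called by limma, with 5 lower and 0 higher at an unadjusted p under 0.05. Of 4 hormone-responsive genes 0 were called by limma against HMD, with 1 higher and 1 lower at an unadjusted p under 0.05. Over all genes, 7627 of 13672 were under that unadjusted p against HMD, and 592 of 12989 between HMD and Con. Of 13 Notch genes 0 were called higher, 2 lower and 11 not. The 2 lower were the target genes Hey1, from 17.2 to 10.02 FPKM, and Hes5, from 2.09 to 0.933. Hes5 reached the tested level only through the HMD libraries.

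**Figure D5:**
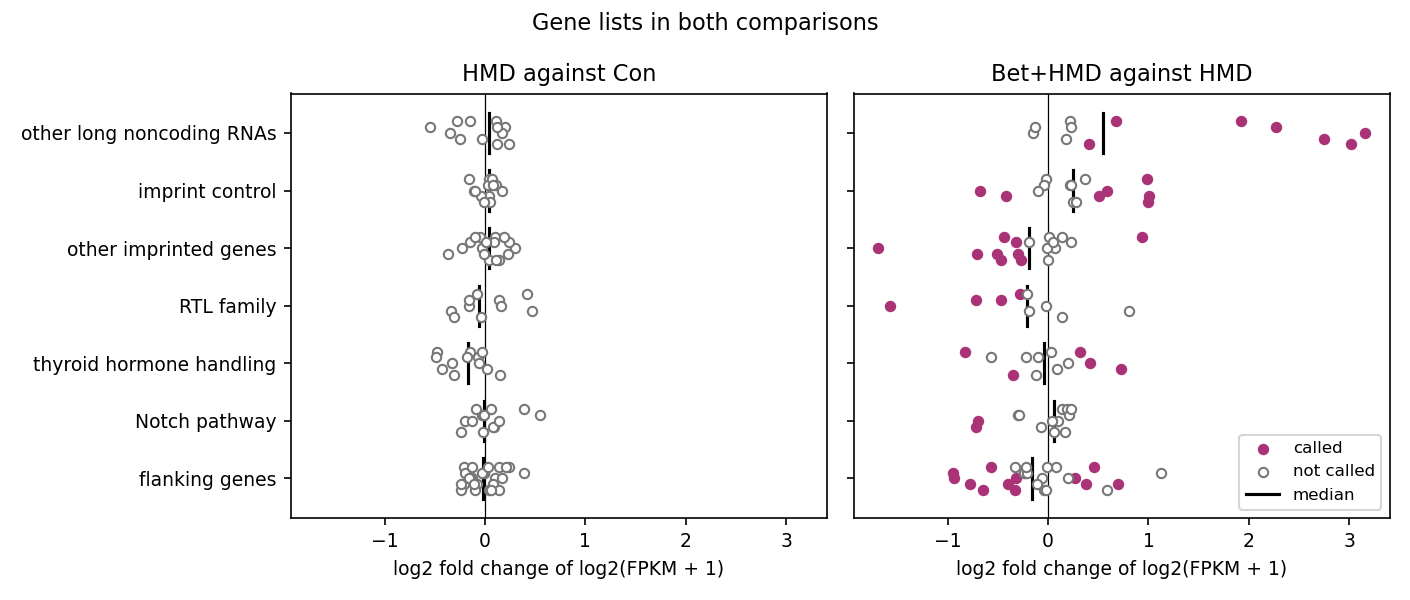
log2 difference of log2(FPKM + 1) of each tested gene (points, filled where called) in 7 lists, with the list's median (line), for HMD against Con (left) and Bet+HMD against HMD (right). In the right panel the median of the flanking genes is -0.16, beside -0.03 over all genes. Neat1, Ezh2 and Zfp57 are there only through their Bet+HMD levels, and Hes5 and Ankrd9 only through their HMD levels. In the left panel no gene was called.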

How the data were processed

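The authors deposited FPKM per gene in 2 tables, with gene length (another quantity, in bases), position and biotype. The submitters' processing notes name HISAT2 2.1.0, featureCounts 1.5.0-p3 and mm10, while the study's methods give other versions of both tools. Those methods describe rRNA depletion, a stranded mRNA library kit and paired-end reads. They do not mention betaine, so whether they cover the Bet+HMD libraries is not known. The strand setting of the counting is not given in the sources used here. Columns named COL were read as Con, which is inferred. FPKM times gene length and library size gave whole reads (within 0.02 reads) for 100% of values, and floors in reads cover counting error only. Replicates differed by more than sampling noise. In the later table the chi-square per degree of freedom was 3.00 to 4.21 between Bet+HMD libraries. Between libraries of the same group in Con and HMD it was 11.8 to 42.2, so the Bet+HMD libraries were more alike. The later table held 0.312% to 5.49% fewer reads per shared library, so tests stayed within a table.

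limma 3.58.1 (R 4.3.3) with an intensity trend took log2(FPKM + 1) of the pair of groups, keeping genes whose mean FPKM reached 1, two-sided, and was tested on simulated data. The labels number the samples but do not say that each is a separate mouse, so p-values measure the spread between samples, which may be technical. The share of reads was tested with scipy, and the alternatives are listed with their effect at the end. The members and lists were chosen with earlier results of these data known. Named genes were the 6 members, the 4 small RNA genes with most reads, the nearest 2 flanking genes a side, the 5 genes most like Meg3, and the highest or most changed of each list. Gas5 was named outside these rules.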

Additional observations from a re-analysis of the deposited data

How the results depend on the processing

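In HMD against Con 0 members were called in the main fit and in each alternative. The signs of Meg3 and Rian, both near 0, turned without single libraries: leaving out 1 library at a time gave -0.29 to 0.25 for Meg3 (-0.29 without Con replicate 2, -0.06 without HMD replicate 2, -0.01 without HMD replicate 3) and -0.059 to 0.054 for Rian (-0.03 without Con replicate 3, -0.059 without HMD replicate 2). The difference in the share of reads, -0.0011 percentage points, ran from -0.00954 to 0.00482 with 1 library left out and was 0.000128 for Rian and Mirg without Meg3. With a mean FPKM of at least 5, 2 members (Meg3 and Rian) were called in each comparison of Bet+HMD in place of 4, because Mirg, Dlk1 and Dio3 were no longer tested. With 1 library left out, 4 members were called against HMD and 3 to 4 against Con. Dio3 against HMD was called under quantile normalization alone (-0.69). No Bet+HMD difference of a tested member changed sign under any alternative run. Mirg and Rtl1 in HMD against Con, and Rtl1 elsewhere, were under the filter and were tested only without it: then 0 members were called in HMD against Con, 5 against HMD, Rtl1 included, and 4 against Con, with Rtl1 in and Dio3 out. With all 3 groups in 1 fit, 10 of 13004 genes were called between HMD and Con, and 2 of 12999 without Con replicate 2, against 0 of 12989.

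Same-numbered samples of HMD and Con deviated together with correlations of -0.06, 0.35 and 0.32, and those of Bet+HMD with HMD averaged -0.08 and with Con -0.11, so the numbers were not taken to pair samples. With the replicate number as a block, 0, 4 and 4 members were called in HMD against Con, Bet+HMD against HMD and Bet+HMD against Con, and over all genes 0, 5615 and 3924 in place of 0, 6607 and 5422. Not every sample correlated best with its own number.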
